A study of Mus musculus with 17 samples.

Results

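The 10 genes described here encode the enzymes that copy, add and remove methyl groups on cytosines of DNA, with their closest cofactors. Dnmt1, Uhrf1 and Hells serve maintenance, Dnmt3a, Dnmt3b and Dnmt3l serve de novo methylation, and Tet1, Tet2, Tet3 and Tdg serve oxidation and excision. They were chosen by name, with earlier results of these data known. All 10 were among the 24013 genes of the count table, and all 10 passed the filter on low counts that left 15451 genes to be tested.

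RNA was measured in 17 libraries of cells sorted from dissociated mouse testis, on a mixed B6/J X B6/N background with the listed genotype Tert-Tomato/+ in every library, a reporter of the telomerase gene Tert. Adult mice gave 3 groups: GFRa1+ TERT-High Kit- cells (here GFRA1pos, n = 4) and GFRa1- TERT-High Kit- cells (GFRA1neg, n = 4), both labelled undifferentiated spermatogonia, and TERT-High Kit+ cells (KITpos, n = 5), labelled differentiated spermatogonia. The remaining group held TERT+ OCT4-GFP+ gonocytes of neonates at postnatal day 6 (P6gonocyte, n = 4), in which the GFP reporter of Oct4 is named in the title and not in the listed genotype. No wild-type or unsorted library was compared, age and sort gate differ together between P6gonocyte and the other groups, and TERT was gated as TERT-High in adults and as TERT+ in neonates. No label ties replicates of a group to different animals, and the p-values then rest only on the spread among these samples, which can be technical.

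DNA methylation at CpG sites is kept through cell division by DNMT1, which methylates the new strand after replication, and UHRF1, which recognises hemimethylated DNA and recruits DNMT1. HELLS (LSH) is a chromatin remodeller needed for methylation of repeats. New methylation is set by DNMT3A and DNMT3B, and DNMT3L has no catalytic activity of its own but stimulates them in the male germ line, where new methylation is set before birth in prospermatogonia. The TET enzymes oxidise methylcytosine, and TDG excises the oxidised bases so that base excision repair can restore cytosine.

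Promoter sequences of the 10 genes were taken from RefSeq (GRCm38.p6, 17 annotated starts) to show what the groups of genes share outside their levels. The 250 bases before each start were searched on both strands for the 8-base words TTTCCCGC, TTTCGCGC, TTTGCCGC and TTTGGCGC, forms of the E2F recognition sequence found at many replication genes. A word stood before 3 of the 17 starts, those of Dnmt1, Uhrf1 and Hells, and before none of the de novo or TET genes. Of 15316 promoters of tested genes 3.075% held such a word, and of 32851 promoters of all genes 1.86% did. Of 17 promoters of 16 of the DNA replication genes listed below, 6 held such a word. The windows below are printed because a word was found in them, with the word in capitals (in Dnmt1 on the opposite strand), 5′ to 3′ along each gene.
Dnmt1, chr9:20952824-20952853, minus strand, word from 219 bases before the start: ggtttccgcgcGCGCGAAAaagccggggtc
Uhrf1, chr17:56304117-56304146, plus strand, word from 185 bases before the start: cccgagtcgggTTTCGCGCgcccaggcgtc
Hells, chr19:38930917-38930946, plus strand, word from 62 bases before the start: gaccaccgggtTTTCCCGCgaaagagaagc
A match describes letters and not binding, and the Uhrf1 and Dnmt1 words stand before 1 of several annotated starts. The Dnmt1 and Hells stretches also lie within exons that GENCODE vM21 annotates to any gene, which cover 20952708 to 20952873 and 38930915 to 38930989 of the 250-base windows.

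The same promoters differed in their CpG content, the substrate of the enzymes themselves. The ratio of observed to expected CpG over 250 bases was 1.187 before the Tet2 start, above 99.3% of all promoters, 0.5616 before the Tet3 start, and 0.2723, 0.2501 and 0.1347 before the 3 Dnmt3l starts. The median was 0.685 over promoters of tested genes and 0.3735 over all promoters. The last 76 bases before a start are shown for the highest, for a middle value and for the second Dnmt3l start, with each CpG in capitals.
Tet2, chr3:133544391-133544466, minus strand, 15 CpG: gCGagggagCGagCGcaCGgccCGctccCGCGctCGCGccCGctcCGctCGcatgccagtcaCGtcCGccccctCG
Tet3, chr6:83441679-83441754, minus strand, 9 CpG: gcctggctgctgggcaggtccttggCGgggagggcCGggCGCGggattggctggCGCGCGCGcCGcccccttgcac
Dnmt3l, chr10:78049766-78049841, plus strand, 2 CpG: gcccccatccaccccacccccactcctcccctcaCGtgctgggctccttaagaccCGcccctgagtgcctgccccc

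Depth was lower in KITpos (5178352 to 8300165 counts a library) and P6gonocyte (6479216 to 8468203) than in GFRA1pos (10918223 to 11567191) and GFRA1neg (9965437 to 12641907). Levels are counts scaled by TMM to a common library size (CPM), and every adjusted p is from edgeR's quasi-likelihood test with Benjamini-Hochberg adjustment over all 15451 genes, called under 0.05. Germ cell genes were present in every group: Ddx4 had mean levels of 124, 166, 132 and 259 CPM in GFRA1pos, GFRA1neg, KITpos and P6gonocyte, and the sort gene Gfra1 had 389.9, 22.8, 4.71 and 145. Kit had 17.6, 27.6, 353 and 188 CPM in the same order, so the Kit-negative groups and the gonocytes carried Kit transcripts. These are RNA levels and not a measure of the sort gate. Libraries also differed in transcripts of later germ cells. The summed level of 7 spermatid markers ran from 68.8 to 1762 CPM in GFRA1pos, 364.9 to 1585 in GFRA1neg and 360.5 to 1246 in KITpos. It was 2.53 to 4.86 CPM in P6gonocyte, where Prm1 was at 0. The 4 libraries highest in these markers were GFRA1pos replicates 2 and 4, GFRA1neg replicate 2 and KITpos replicate 1, and the fold changes of the 10 genes and the counts of called genes in each list were also computed without them.

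Across the 6 pairwise comparisons the 10 genes did not move as a block. By group means, GFRA1neg cells carried the most Tet3 and Dnmt3l and the least Dnmt1, Uhrf1 and Hells. GFRA1pos cells carried the most Dnmt1 and Uhrf1 and the least Dnmt3b and Tet3, and P6gonocyte cells the most Hells and Tdg. In GFRA1pos minus GFRA1neg 6 of 10 genes were called, 2 of them higher in GFRA1pos and 4 lower, where 14.1% of all tested genes were called (7.3% higher and 6.84% lower). In that comparison 7 of 10 genes had no overlap between the groups' libraries, against 23.3% of all tested genes. The median log2 fold change, GFRA1pos minus GFRA1neg, was -0.75 over the 10 genes and -0.04 over all tested genes.

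KITpos minus GFRA1neg gave 7 called genes of 10, 4 higher and 3 lower, where 45.1% of all genes were called (22.1% higher and 23% lower), and 5 of 10 did not overlap against 33.8% of all. P6gonocyte minus GFRA1pos gave 5 called genes, all higher in P6gonocyte, where 39.2% were called (17.3% higher and 21.9% lower), and 5 of 10 did not overlap against 41.5%. KITpos minus GFRA1pos gave 6, 4 higher and 2 lower, where 48.6% were called (24.9% higher and 23.7% lower), with 3 of 10 not overlapping against 37.2%. P6gonocyte minus GFRA1neg gave 5, 4 higher and 1 lower, where 43.6% were called (18.8% higher and 24.9% lower), with 7 of 10 not overlapping against 44.8%. P6gonocyte minus KITpos gave 4, all higher, where 49.1% were called (21.8% higher and 27.3% lower), with 3 of 10 not overlapping against 35.9%. In these 5 comparisons the 4 to 7 called genes of 10 stand against backgrounds of 39.2% to 49.1%, near which a share is no result about the 10 genes. The comparisons share groups and are given side by side, not as support for each other. In sorted bulk samples fewer cells of a kind and less RNA per cell cannot be told apart.

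**Figure D1:**
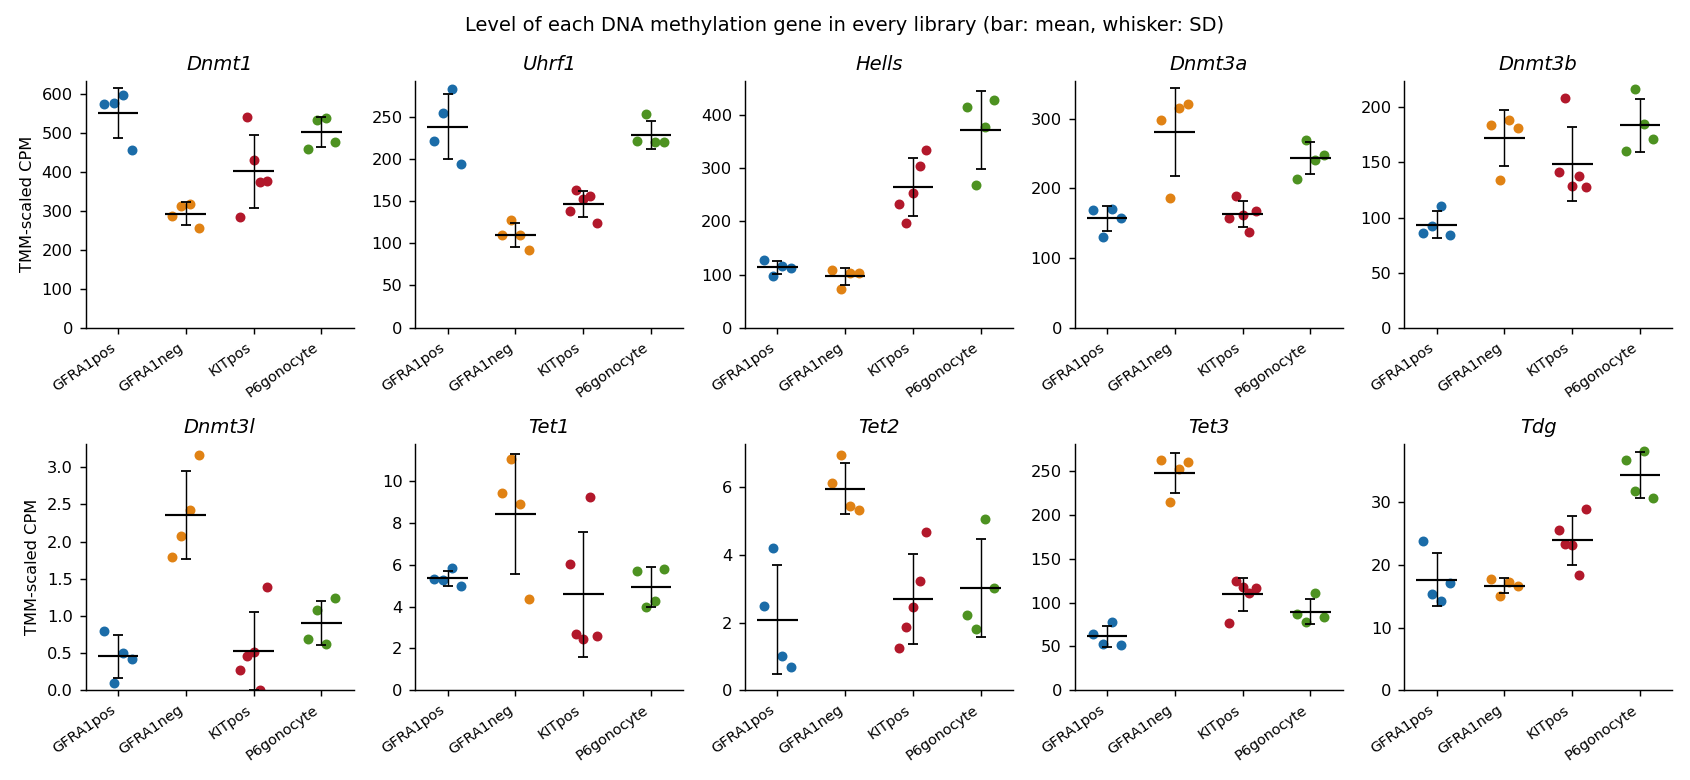
Each panel is a gene, each point a library in TMM-scaled CPM on a linear axis from 0, with replicates from left to right, the bar the group mean and the whisker the SD (n = 4, 4, 5 and 4). Tet3 in the 4 GFRA1neg libraries lies at 214 to 262 CPM, above every library of the other groups, and Hells in GFRA1pos and GFRA1neg lies below every KITpos and P6gonocyte library.

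**Figure D2:**
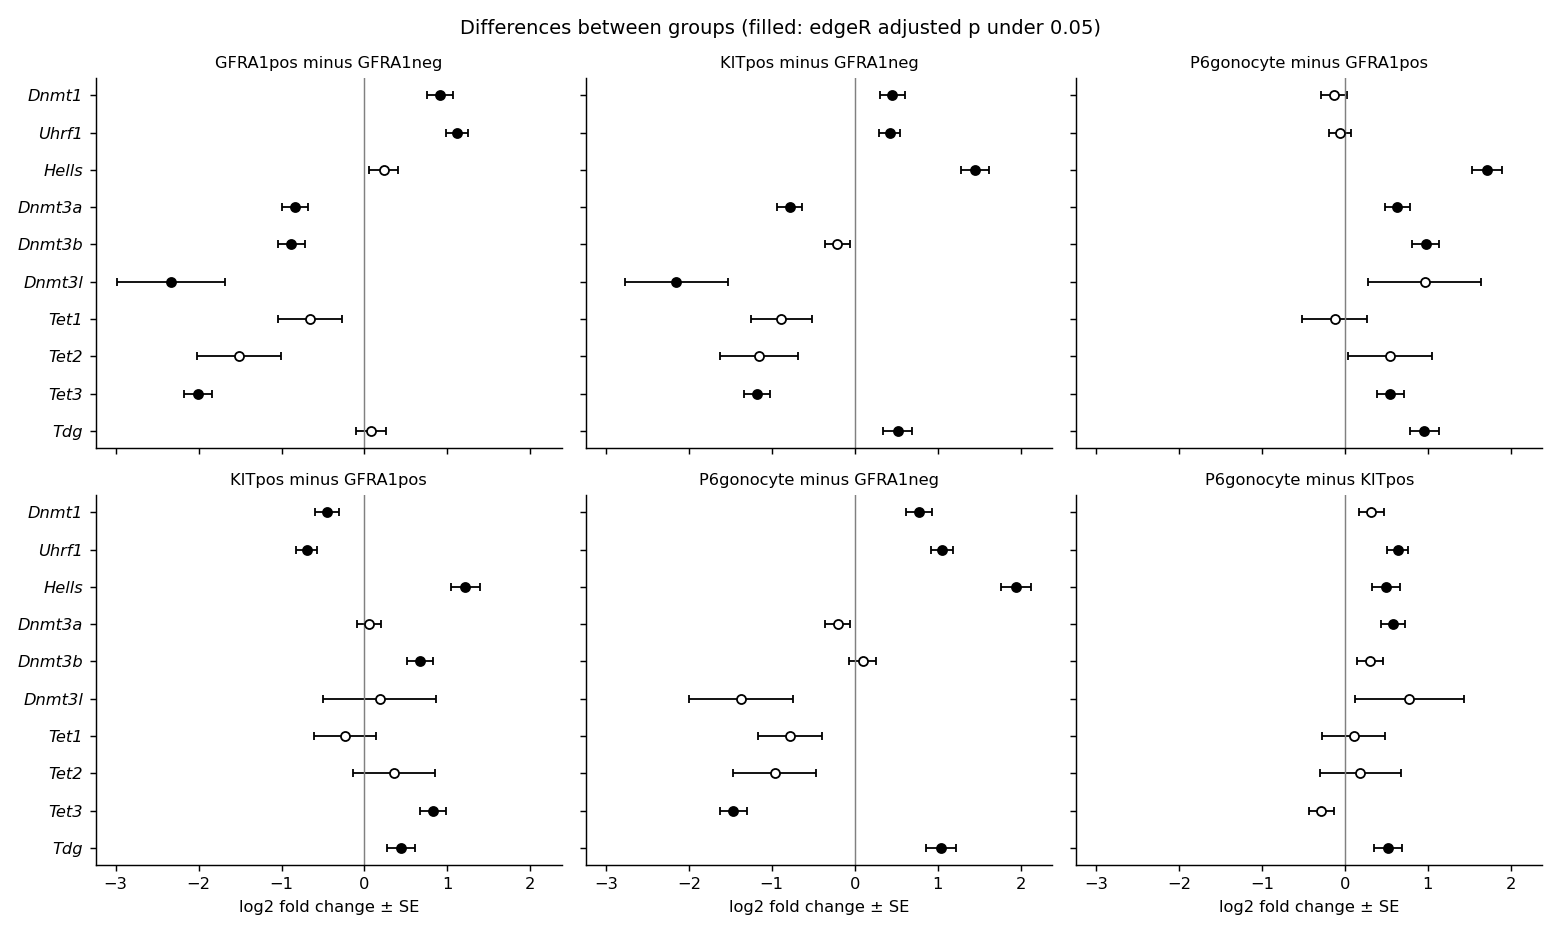
Points are log2 fold changes with SE for the 10 genes in the 6 comparisons, the first group minus the second, and filled points have an edgeR adjusted p under 0.05. In GFRA1pos minus GFRA1neg Dnmt1 and Uhrf1 lie to the right of 0 and the de novo genes and Tet3 to the left, with Tet3 at -2.01 ± 0.17.

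Dnmt1, the maintenance methyltransferase, was higher in GFRA1pos than in GFRA1neg. Its level was 573, 576, 597 and 455 CPM in GFRA1pos replicates 1 to 4 and 288, 313, 316 and 254 in GFRA1neg replicates 1 to 4. It was 285, 541, 431, 374 and 377 CPM in KITpos replicates 1 to 5 and 459, 532, 537 and 477 in P6gonocyte replicates 1 to 4. GFRA1neg libraries were all below those of GFRA1pos and P6gonocyte, KITpos replicate 1 lay among the GFRA1neg values and KITpos replicate 2 above every P6gonocyte library. Group means were 550.3 ± 64.3, 293 ± 28.6, 402 ± 93.8 and 501 ± 38.8 CPM (SD, n = 4, 4, 5 and 4). Dnmt1 was 1.88-fold higher in GFRA1pos than in GFRA1neg, a log2 difference of 0.91 ± 0.16 (SE, edgeR adjusted p = 0.000502), and 1.71-fold higher in P6gonocyte than in GFRA1neg (0.78 ± 0.16, edgeR adjusted p = 0.000649). KITpos stood between, at -0.45 ± 0.15 from GFRA1pos (edgeR adjusted p = 0.0149) and 0.46 ± 0.15 from GFRA1neg (edgeR adjusted p = 0.0169). The last call was lost without GFRA1neg replicate 4 (adjusted p = 0.0648), without KITpos replicate 2 (0.0512) and in a fit of only the 2 groups (0.0646). P6gonocyte minus GFRA1pos was -0.13 ± 0.15 (edgeR adjusted p = 0.52) and P6gonocyte minus KITpos 0.32 ± 0.15 (edgeR adjusted p = 0.0779). Neither of these differences between neighbours in the order of levels was called. The P6gonocyte minus KITpos difference was called without KITpos replicate 2 (adjusted p = 0.00878) and under RLE scaling (0.0428). DESeq2 (adjusted p = 0.034) and the fit without the 2 most abundant entries (0.0286) called it too.

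Uhrf1, which brings DNMT1 to newly replicated DNA, followed a like order with less overlap. It stood at 222, 254, 283 and 193 CPM in GFRA1pos and at 109, 128, 109.7 and 92.4 in GFRA1neg, with libraries in replicate order. KITpos libraries had 139, 164, 153, 156 and 125 CPM and P6gonocyte libraries 221, 253, 219.6 and 220.0. Every GFRA1pos and P6gonocyte library lay above every KITpos library, and the GFRA1neg libraries were lowest but for replicate 2, which passed KITpos replicate 5. Means were 238 ± 38.8, 109.8 ± 14.6, 147 ± 15.4 and 228 ± 16.4 CPM in GFRA1pos, GFRA1neg, KITpos and P6gonocyte (SD, n = 4, 4, 5 and 4). GFRA1pos exceeded GFRA1neg 2.17-fold (1.12 ± 0.13 log2 ± SE, edgeR adjusted p = 1.44e-05) and P6gonocyte exceeded it 2.08-fold (1.06 ± 0.13, edgeR adjusted p = 1.17e-05). KITpos was lower than GFRA1pos by 1.62-fold (-0.70 ± 0.12, edgeR adjusted p = 0.000139) and lower than P6gonocyte by 1.55-fold (0.64 ± 0.13, edgeR adjusted p = 0.00043, as P6gonocyte minus KITpos). KITpos minus GFRA1neg was smaller, 0.42 ± 0.13 (edgeR adjusted p = 0.0108), and its call was lost without GFRA1neg replicate 4 (adjusted p = 0.0511). P6gonocyte and GFRA1pos did not differ beyond their spread, at -0.06 ± 0.13 (edgeR adjusted p = 0.75).

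Hells, the remodeller, had another order: low in both Kit-negative adult groups and high in KITpos and P6gonocyte. Its level was 128, 97.9, 117 and 113 CPM in GFRA1pos and 108, 72.6, 104 and 103 in GFRA1neg. It was 233, 198, 254, 305 and 335 CPM in KITpos and 416, 268, 378 and 429 in P6gonocyte. No Kit-negative adult library reached the lowest KITpos library, and P6gonocyte replicate 2 lay within the KITpos range while the other P6gonocyte libraries lay above it. Group means were 114 ± 12.3, 96.8 ± 16.3, 265 ± 55.2 and 373 ± 73.2 CPM (SD, n = 4, 4, 5 and 4). KITpos exceeded GFRA1neg 2.74-fold (1.45 ± 0.17, edgeR adjusted p = 1.67e-06) and GFRA1pos 2.33-fold (1.22 ± 0.17, edgeR adjusted p = 1.04e-05). P6gonocyte exceeded GFRA1pos 3.27-fold (1.71 ± 0.18, edgeR adjusted p = 4.77e-06) and GFRA1neg 3.85-fold (1.94 ± 0.18, edgeR adjusted p = 4.97e-07). Between P6gonocyte and KITpos the difference was 0.49 ± 0.17 (edgeR adjusted p = 0.0193), lost without P6gonocyte replicate 1 (adjusted p = 0.0586) or replicate 4 (0.066). GFRA1pos minus GFRA1neg was 0.23 ± 0.18 (edgeR adjusted p = 0.44).

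Maintenance methylation acts at replication, so the 3 genes were set beside 20 DNA replication genes (subunits of the MCM helicase, GINS, origin licensing, primase and nucleotide synthesis). Of the 20, 16 were higher in GFRA1pos than in GFRA1neg and none was lower, by edgeR and also at an unadjusted p under 0.05, with a median log2 difference of 0.74 over the list. Prim1, the primase subunit, differed by 1.60 ± 0.16 (edgeR adjusted p = 1.23e-06) and Rrm2, of ribonucleotide reductase, by 1.75 ± 0.21 (edgeR adjusted p = 1.44e-05). KITpos minus GFRA1neg called 16 higher and 2 lower, P6gonocyte minus GFRA1neg 18 higher and 0 lower, P6gonocyte minus GFRA1pos 11 higher and 1 lower, KITpos minus GFRA1pos 8 higher and 4 lower, and P6gonocyte minus KITpos 9 higher and 0 lower. The share of all tested genes called was 14.1% in GFRA1pos minus GFRA1neg and 39.2% to 49.1% in the other comparisons. A count near such a share is no result about the list. The counts in GFRA1pos minus GFRA1neg were the same by DESeq2, limma voom and without the 4 libraries highest in spermatid markers. Without those libraries, the higher calls fell from 11 to 8 in P6gonocyte minus GFRA1pos and from 8 to 5 in KITpos minus GFRA1pos. They stayed at 16, 18 and 9 in KITpos minus GFRA1neg, P6gonocyte minus GFRA1neg and P6gonocyte minus KITpos. The summed level of the 20 genes was 2416 to 2790 CPM in GFRA1pos, 1655 to 1790 in GFRA1neg, 2416 to 3203 in KITpos and 3168 to 3752 in P6gonocyte. GFRA1pos and KITpos thus overlapped on the replication sum, while every GFRA1pos library had more Uhrf1 and less Hells than every KITpos library. As a share of the replication sum, Dnmt1 had medians of 20.8%, 17.3%, 15.2% and 14.6% in GFRA1pos, GFRA1neg, KITpos and P6gonocyte, Uhrf1 8.64%, 6.27%, 5.48% and 6.80%, and Hells 4.39%, 5.99%, 9.86% and 12.4%. The part of the replication level in the differences of Dnmt1 and Uhrf1 was not tested beyond these values.

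**Figure D3:**
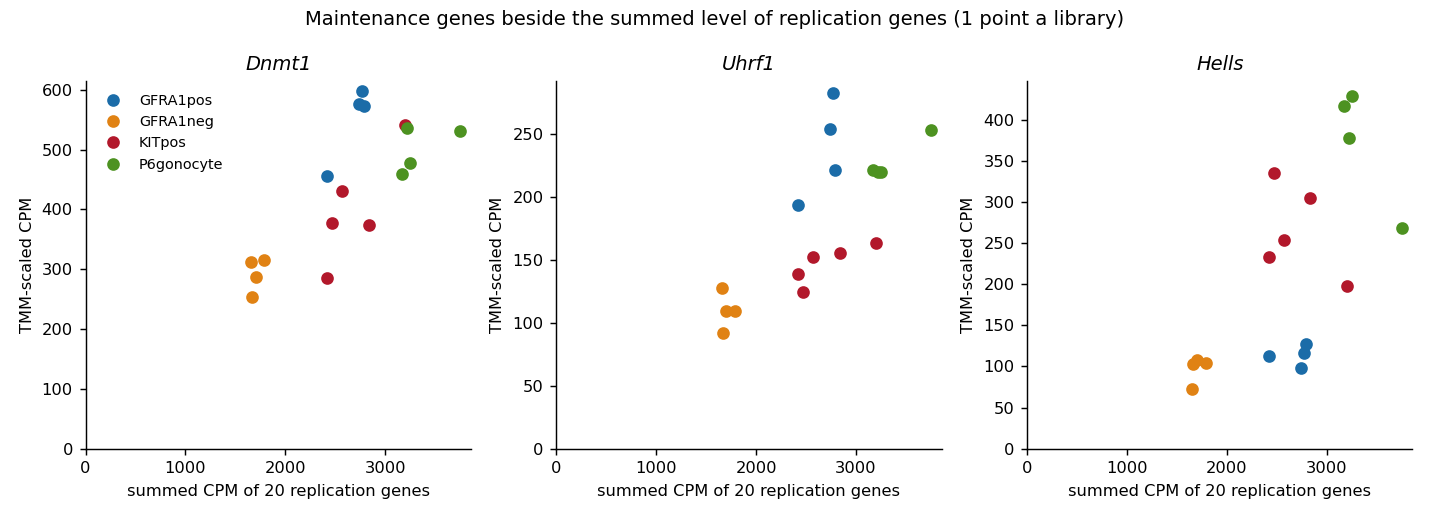
Each point is a library, placed by the summed CPM of 20 replication genes and by the CPM of Dnmt1, Uhrf1 or Hells, on linear axes from 0 and coloured by group. At replication sums between 2416 and 2790 CPM, GFRA1pos libraries lie at 97.9 to 128 CPM of Hells, and every KITpos library lies at 197.8 or above.

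De novo methyltransferases were lower in GFRA1pos than in GFRA1neg. Dnmt3a stood at 168, 131, 171 and 157 CPM in GFRA1pos and 298, 187, 315 and 322 in GFRA1neg. In KITpos it stood at 157, 189, 162, 138 and 168 CPM and in P6gonocyte at 214, 269.9, 241 and 248. GFRA1neg replicate 2 lay below the other GFRA1neg libraries and below KITpos replicate 2. That library also had the highest summed level of 7 spermatocyte markers, 2088 CPM against 468.7 to 601.0 in the other GFRA1neg libraries. The part of those cells in the value was not tested. Means of Dnmt3a were 157 ± 18.5, 280.5 ± 63.3, 163 ± 18.6 and 243 ± 23.0 CPM (SD, n = 4, 4, 5 and 4). GFRA1pos was 1.79-fold lower than GFRA1neg (-0.84 ± 0.15, edgeR adjusted p = 0.000984), with no overlap, and KITpos 1.72-fold lower (-0.78 ± 0.15, edgeR adjusted p = 0.000205), with overlap at that replicate. P6gonocyte was higher than GFRA1pos by 0.63 ± 0.15 (edgeR adjusted p = 0.00344) and higher than KITpos by 0.58 ± 0.15 (edgeR adjusted p = 0.003), with no overlap in either. KITpos and GFRA1pos differed by 0.05 ± 0.15 (edgeR adjusted p = 0.79), a difference that took the other sign under RLE scaling. P6gonocyte minus GFRA1neg was -0.21 ± 0.15 (edgeR adjusted p = 0.29), called lower without GFRA1neg replicate 2 (adjusted p = 0.0373). An annotated antisense gene, Dnmt3aos, shares 133 exon bases with Dnmt3a and had at most 1.171 CPM in any library, and reads of the pair cannot be told apart without strand.

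Dnmt3b, the other de novo enzyme, was lowest in GFRA1pos, with overlapping levels in the other 3 groups. Its level was 86.1, 92.2, 111 and 83.8 CPM in GFRA1pos and 184, 134, 189 and 181 in GFRA1neg. KITpos libraries had 141, 208, 129, 138 and 128 CPM and P6gonocyte libraries 161, 217, 185 and 172. No GFRA1pos library reached any library of the other 3 groups. GFRA1neg replicate 2 was again the lowest of its group, and KITpos replicate 2 the highest of its own. Means were 93.3 ± 12.3, 172 ± 25.4, 149 ± 33.9 and 184 ± 24.4 CPM (SD, n = 4, 4, 5 and 4). GFRA1pos was 1.84-fold lower than GFRA1neg (-0.88 ± 0.16, edgeR adjusted p = 0.000984), KITpos 1.60-fold higher than GFRA1pos (0.67 ± 0.16, edgeR adjusted p = 0.00143) and P6gonocyte 1.97-fold higher (0.98 ± 0.16, edgeR adjusted p = 0.000204). Differences among GFRA1neg, KITpos and P6gonocyte did not pass: -0.21 ± 0.15 for KITpos minus GFRA1neg (edgeR adjusted p = 0.29), 0.10 ± 0.16 for P6gonocyte minus GFRA1neg (edgeR adjusted p = 0.66) and 0.30 ± 0.15 for P6gonocyte minus KITpos (edgeR adjusted p = 0.11). Without KITpos replicate 2, KITpos was called lower than GFRA1neg (adjusted p = 0.0311) and lower than P6gonocyte (0.00804). Reads from Dnmt3c, a rodent copy of Dnmt3b that is not analysed here, could stand in the Dnmt3b counts where the sequences match.

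Dnmt3l, the cofactor of fetal de novo methylation, was near the limit of detection in every group. Raw counts were 9, 1, 5 and 5 in GFRA1pos, 19, 26, 21 and 32 in GFRA1neg, 2, 4, 4, 0 and 8 in KITpos and 5, 9, 6 and 9 in P6gonocyte. On the scaled level these are 0.0976 to 0.80 CPM, 1.79 to 3.16 CPM, 0 to 1.39 CPM and 0.62 to 1.24 CPM, and the count of 0 in KITpos replicate 4 allows a level of up to 0.512 CPM (3 counts, counting error only). All 4 GFRA1neg libraries lay above every other library. Dnmt3l was 5.03-fold lower in GFRA1pos than in GFRA1neg (-2.33 ± 0.65, edgeR adjusted p = 0.0211) and 4.44-fold lower in KITpos (-2.15 ± 0.62, edgeR adjusted p = 0.00853). The GFRA1pos call was lost without GFRA1pos replicate 2 (adjusted p = 0.069), 3 (0.0534) or 4 (0.0627), without GFRA1neg replicate 4 (0.0628) and without the 4 libraries highest in spermatid markers (0.21). The log2 fold change was -2.01, -2.38, -2.24, -2.16 and -1.84 in these 5 fits of Dnmt3l, which hold fewer libraries. P6gonocyte minus GFRA1neg was -1.37 ± 0.63 (edgeR adjusted p = 0.0856), and it was called by limma voom (adjusted p = 0.0466) and in a fit of only the 2 groups (0.0142). GFRA1pos, KITpos and P6gonocyte did not differ from one another beyond their spread, with adjusted p of 0.85, 0.27 and 0.34 by edgeR. Aire, which shares 67 exon bases with Dnmt3l, had at most 0.1706 CPM in any library.

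Tet3, which oxidises methylcytosine in the zygote and in many differentiating cells, was highest in GFRA1neg. Its level was 64.4, 52.4, 77.8 and 51.3 CPM in GFRA1pos and 262, 214, 253 and 261 in GFRA1neg. KITpos libraries had 77.1, 124, 117, 111 and 117 CPM and P6gonocyte libraries 86.8, 78.3, 111 and 83.4. The 4 GFRA1neg libraries lay above all 13 others, and GFRA1pos lay below P6gonocyte by a narrow margin between GFRA1pos replicate 3 and P6gonocyte replicate 2. Means were 61.5 ± 12.4, 248 ± 22.6, 109 ± 18.6 and 89.8 ± 14.4 CPM (SD, n = 4, 4, 5 and 4). GFRA1pos was 4.03-fold lower than GFRA1neg (-2.01 ± 0.17, edgeR adjusted p = 2.01e-07), KITpos 2.26-fold lower (-1.18 ± 0.15, edgeR adjusted p = 4.30e-06) and P6gonocyte 2.75-fold lower (-1.46 ± 0.16, edgeR adjusted p = 3.55e-06). KITpos exceeded GFRA1pos by 0.83 ± 0.16 (edgeR adjusted p = 0.000221), with overlap at KITpos replicate 1. P6gonocyte exceeded GFRA1pos by 0.55 ± 0.16 (edgeR adjusted p = 0.0124), a call lost without P6gonocyte replicate 3 (adjusted p = 0.0561) and without the 4 libraries highest in spermatid markers (0.0954). P6gonocyte minus KITpos was -0.28 ± 0.15 (edgeR adjusted p = 0.14), and was called without KITpos replicate 1 (adjusted p = 0.0325).

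Tet1 and Tet2 were low throughout, with group sums of counts that leave wide errors. Tet1 ran at 4.98 to 5.84 CPM in GFRA1pos, 4.34 to 11.04 in GFRA1neg, 2.46 to 9.21 in KITpos and 3.97 to 5.77 in P6gonocyte. None of the 6 Tet1 differences passed by edgeR (1 had an unadjusted p under 0.05, and DESeq2 and limma voom called 1 each), the largest being -0.88 ± 0.37 for KITpos minus GFRA1neg (edgeR adjusted p = 0.0582), which was called without GFRA1neg replicate 4 (adjusted p = 0.0244), KITpos replicate 1 (0.0486) or KITpos replicate 4 (0.00478), under upper-quartile scaling (0.0476) and without the 2 most abundant entries (0.0452). GFRA1neg replicate 4 was the lowest of its group and KITpos replicate 4 the highest of its own, each within the range of the other group. Tet2 ran at 0.68 to 4.20 CPM in GFRA1pos, 5.33 to 6.96 in GFRA1neg, 1.26 to 4.68 in KITpos and 1.80 to 5.07 in P6gonocyte, and all 4 GFRA1neg libraries lay above every other library. An antisense gene that shares 43 exon bases with Tet2 is not analysed here. Differences of Tet2 from GFRA1neg were -1.51 ± 0.50 in GFRA1pos (edgeR adjusted p = 0.0515), -1.15 ± 0.47 in KITpos (edgeR adjusted p = 0.0537) and -0.97 ± 0.50 in P6gonocyte (edgeR adjusted p = 0.12). The GFRA1pos difference was called by DESeq2 (adjusted p = 0.0265), by limma voom (0.00618) and without GFRA1pos replicate 2 (0.0145), and the KITpos difference by DESeq2 (0.0348), by limma voom (0.0139) and without KITpos replicate 5 (0.0236). The KITpos difference of Tet2 was also called under RLE (0.0493) and upper-quartile scaling (0.0486), with the replicate block (0.04), without the 2 most abundant entries (0.0418) and in a fit of only the 2 groups (0.0283). The P6gonocyte difference of Tet2 was called in a fit of only the 2 groups (adjusted p = 0.0416). Per kilobase of exon (lengths from GENCODE vM21 on GRCm38, while the counts are on mm9), mean Tet3 levels were 3.68, 14.8, 6.55 and 5.38 CPM per kb in GFRA1pos, GFRA1neg, KITpos and P6gonocyte. On that scale Tet1 had 0.346, 0.545, 0.297 and 0.318, and Tet2 0.124, 0.353, 0.16 and 0.18. These lengths join all annotated exons of a gene and can exceed that of a single transcript.

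Tdg, the glycosylase that removes oxidised cytosines, rose in P6gonocyte. It ran at 14.3 to 23.8 CPM in GFRA1pos, 15.1 to 17.8 in GFRA1neg, 18.4 to 28.9 in KITpos and 30.6 to 38.1 in P6gonocyte, where every library lay above every adult library. P6gonocyte exceeded GFRA1neg 2.05-fold (1.04 ± 0.18, edgeR adjusted p = 0.00018), GFRA1pos 1.94-fold (0.96 ± 0.18, edgeR adjusted p = 0.000462) and KITpos 1.43-fold (0.52 ± 0.17, edgeR adjusted p = 0.0149), the last lost without P6gonocyte replicate 3 (adjusted p = 0.0517). KITpos exceeded GFRA1neg by 0.52 ± 0.17 (edgeR adjusted p = 0.0184), lost without GFRA1neg replicate 2 (0.0514), in a fit of only the 2 groups (0.0675) and without the 4 libraries highest in spermatid markers (0.0888). KITpos minus GFRA1pos was 0.44 ± 0.17 (edgeR adjusted p = 0.0399) and was lost under RLE scaling (0.0737), by DESeq2 (0.069) and without GFRA1pos replicate 2 (0.11), 3 (0.14) or 4 (0.0681) or KITpos replicate 1 (0.0694), 3 (0.0504) or 5 (0.0893). That call was also lost under upper-quartile scaling (adjusted p = 0.0623), with no count filter (0.069) and with the replicate block (0.0618). It was lost too without the 2 most abundant entries (0.104) and in a fit of only the 2 groups (0.113). Without the 4 libraries highest in spermatid markers KITpos minus GFRA1pos was 0.27 (adjusted p = 0.38). GFRA1pos minus GFRA1neg was 0.08 ± 0.18 (edgeR adjusted p = 0.84). All Tdg values are uncertain, because a separate entry for the pseudogene Tdg-ps2 held 91.1% to 100% of Tdg's count in every library, with the same count in 4 of 17 and a largest difference of 16 counts. Glt8d2, which shares 367 exon bases with Tdg, had group means of 1.71 to 3.47 CPM.

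Beside the Tdg and Hells rises in P6gonocyte, the sum of 7 Sertoli cell markers was 41.8 to 132.5 CPM there (highest in replicate 2) against 10.5 to 14.3 in GFRA1pos, with 4 of 5 tested markers called higher and none of the 7 measured markers at 0 in all libraries. The sum of 7 spermatocyte markers was 62.9 to 165.6 CPM in P6gonocyte against 169.7 to 998.3 in GFRA1pos, with 6 of 7 called lower, and all 7 spermatid markers were called lower. In KITpos, the sum of 8 Leydig cell markers was 22.4 to 99.97 CPM against 11.1 to 27.99 in GFRA1neg, with 5 of 7 tested markers called higher. Between GFRA1pos and GFRA1neg the sums of spermatocyte markers (169.7 to 998.3 against 468.7 to 2088 CPM) and of spermatid markers overlapped, and 2 of 5 tested Sertoli markers were lower in GFRA1pos, 1 of 3 macrophage markers and 2 of 4 endothelial markers higher, with sums of at most 27.1 CPM in each of those lists. The part of such cells in the differences of the methylation genes was not tested. Among all tested genes 39.2% were called in P6gonocyte minus GFRA1pos, 45.1% in KITpos minus GFRA1neg and 14.1% in GFRA1pos minus GFRA1neg. Without the 4 libraries highest in spermatid markers, GFRA1pos minus GFRA1neg kept the calls of Dnmt1, Uhrf1, Dnmt3a, Dnmt3b and Tet3 and lost that of Dnmt3l, whose log2 fold change was -1.84 there against -2.33 with all libraries.

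Ratios within a library compare the arms of the pathway free of library scaling. Dnmt1 divided by the sum of Dnmt3a and Dnmt3b was 1.89 to 2.58 in GFRA1pos (median 2.19), 0.506 to 0.974 in GFRA1neg (0.612), 0.956 to 1.48 in KITpos (1.36) and 1.09 to 1.26 in P6gonocyte (1.18). Every GFRA1pos library lay above all 13 others on this ratio, and GFRA1neg and KITpos met only where GFRA1neg replicate 2 passed KITpos replicate 1. Hells divided by Dnmt1 had medians of 0.209, 0.352, 0.815 and 0.802 in GFRA1pos, GFRA1neg, KITpos and P6gonocyte, with KITpos from 0.366 to 0.890 and P6gonocyte from 0.504 to 0.906. Uhrf1 divided by Dnmt1 had medians of 0.434, 0.372, 0.354 and 0.469 in the same order. Its ranges were 0.387 to 0.473, 0.347 to 0.410, 0.303 to 0.487 and 0.409 to 0.482. They overlapped, those of GFRA1neg and P6gonocyte only between 0.4092 and 0.4095. Tet3 divided by Dnmt3a was 0.326 to 0.455 in GFRA1pos and 0.290 to 0.460 in P6gonocyte, against 0.801 to 1.15 in GFRA1neg and 0.492 to 0.807 in KITpos. Dnmt3b divided by Dnmt3a had medians of 0.590, 0.607, 0.899 and 0.759 in the same order of groups. These are ratios of CPM, not per length, and compare libraries and not genes.

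**Figure D4:**
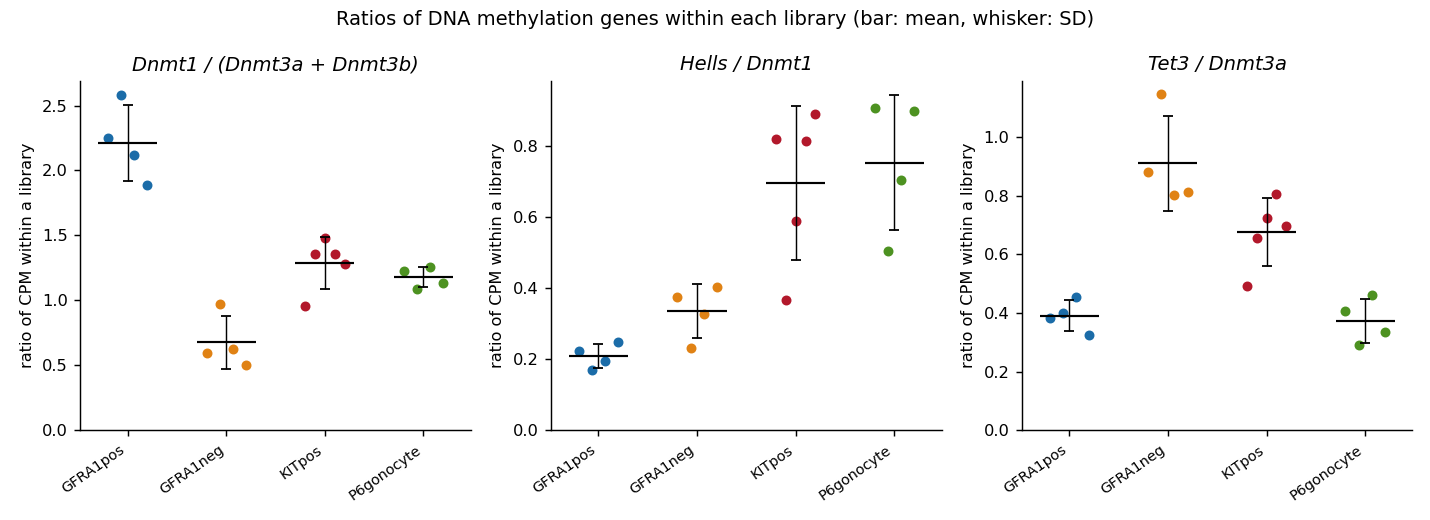
Each point is the ratio of 2 CPM levels within a library on a linear axis from 0, with bars for group means and whiskers for SD (n = 4, 4, 5 and 4). Dnmt1 over Dnmt3a plus Dnmt3b lies from 1.89 to 2.58 in GFRA1pos, above all other libraries, and Hells over Dnmt1 has its higher group means, 0.696 and 0.753, in KITpos and P6gonocyte.

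Per kilobase of exon, Dnmt1 was the most abundant of the 10 genes in every group, with mean levels of 74.6, 39.7, 54.4 and 67.9 CPM per kb in GFRA1pos, GFRA1neg, KITpos and P6gonocyte. Uhrf1 had 55.9, 25.8, 34.5 and 53.7 and Hells 15.8, 13.4, 36.8 and 51.7. Dnmt3b stood above Dnmt3a per kilobase in each group, at 18.3, 33.7, 29.1 and 36.0 against 9.43, 16.9, 9.78 and 14.6 CPM per kb, although Dnmt3a had the larger CPM mean in every group. Dnmt3l had 0.152, 0.791, 0.177 and 0.304 CPM per kb, and Tet2 had a lower mean per kilobase than any other of the 10 genes in each group. The lengths join all annotated exons of a gene (16.64 kb for Dnmt3a, 5.11 for Dnmt3b and 16.87 for Tet2) and can exceed that of a single transcript. The order of genes per kilobase depends on these lengths.

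Partners of the pathway were followed in lists. Their counts stand beside the shares of all tested genes called: 14.1% in GFRA1pos minus GFRA1neg, 45.1% in KITpos minus GFRA1neg and 39.2% in P6gonocyte minus GFRA1pos. The shares were 48.6% in KITpos minus GFRA1pos, 43.6% in P6gonocyte minus GFRA1neg and 49.1% in P6gonocyte minus KITpos. A count near or under such a share is no result about a list. Among 9 partners of maintenance, 3 rose from GFRA1neg to GFRA1pos and none fell: Lig1, the ligase of Okazaki fragments, by 0.79 ± 0.12, Pcna, the sliding clamp, by 0.68 ± 0.14, and Cdca7, a partner of HELLS, by 0.67 ± 0.11. Their adjusted p by edgeR were 0.000215, 0.00309 and 0.000436. The list's median log2 difference was 0.16. In P6gonocyte minus GFRA1neg 5 of 9 rose and none fell, and in KITpos minus GFRA1neg 4 rose and 2 fell, with Pcna at 1.84 ± 0.14 and Cdca7l at -0.91 ± 0.12. P6gonocyte minus GFRA1pos called 3 higher and 0 lower, and 1 higher without the 4 libraries highest in spermatid markers. Cdca7, whose product works with HELLS, stood at -0.68 ± 0.11 in KITpos minus GFRA1pos, a fall (edgeR adjusted p = 3.88e-05), where Hells itself rose.

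Of 7 readers of methylated CpG, none was called between GFRA1pos and GFRA1neg by edgeR, DESeq2 or limma voom. In edgeR 1 of the 7 had an unadjusted p under 0.05. No overlap between libraries was seen for 2 of the 7, near the 23.3% of all tested genes. KITpos minus GFRA1neg called 1 higher and 3 lower, with Mbd2 at -0.88 ± 0.13. P6gonocyte minus GFRA1pos called 1 higher, Zbtb33, which encodes Kaiso, at 0.70 ± 0.13, and 3 lower, with Zbtb4 at -1.20 ± 0.38 and Mbd2 at -0.70 ± 0.14. Zbtb4 was low, with means of 1.84 CPM in P6gonocyte and 4.27 in GFRA1pos, and its libraries overlapped. DESeq2 also called 3 readers lower in that comparison, limma voom 1, and the fit without the 4 libraries highest in spermatid markers 2.

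Among 17 tested genes of demethylation and base excision repair, 3 rose and 2 fell from GFRA1neg to GFRA1pos. Dppa3 (Stella), which limits UHRF1 in germ cells and early embryos, had the widest difference, -3.76 ± 0.63 (edgeR adjusted p = 0.000405), and it was again higher in P6gonocyte than in GFRA1pos (2.91 ± 0.63) and in KITpos than in GFRA1pos (3.89 ± 0.62). These differences rest on a GFRA1pos level of Dppa3 close to 0, with a mean of 0.250 CPM (0.0845 to 0.621), against 3.59 in GFRA1neg, 3.95 in KITpos and 1.99 in P6gonocyte. Ogt, whose product binds TET proteins, was lower at -0.72 ± 0.14, and Cxxc5 higher at 0.72 ± 0.20. Without the 4 libraries highest in spermatid markers, 0 of the 17 were called higher and 2 lower. In KITpos minus GFRA1neg 4 rose and 6 fell, among them Parp1 at -1.05 ± 0.15 and Gadd45b at 3.05 ± 0.44, and in P6gonocyte minus GFRA1pos 3 rose and 1 fell, with Apex1, the abasic site nuclease downstream of TDG, at 0.78 ± 0.14.

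Of 8 genes of chromatin proteins that guide or limit de novo methylation, Ehmt2 (G9a) was the only gene called between GFRA1pos and GFRA1neg, at -1.41 ± 0.17 (edgeR adjusted p = 1.48e-05). It was lower than in GFRA1neg in KITpos too (-1.09 ± 0.16) and in P6gonocyte (-0.92 ± 0.17). P6gonocyte minus GFRA1pos called 3 higher, with Cbx3 (HP1 gamma) at 1.65 ± 0.21, and 1 without the 4 libraries highest in spermatid markers. Setd2, Nsd1 and Ehmt1 were called in no comparison.

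Of 10 measured genes of piRNA-directed methylation, 5 were lower in GFRA1pos than in GFRA1neg and none was higher, with a median of -0.48. Tdrd9 differed by -0.94 ± 0.15, Piwil4 (MIWI2), the nuclear PIWI protein, by -0.90 ± 0.23, Mov10l1 by -0.70 ± 0.14, and Piwil2 and Mael were the others. Without the 4 libraries highest in spermatid markers, 2 of the 10 were called lower. KITpos minus GFRA1neg called 2 higher and 5 lower, with Piwil4 at -2.76 ± 0.23 and Morc1 at -1.72 ± 0.14, and Tex15 in the other direction at 1.44 ± 0.43. P6gonocyte minus GFRA1pos called 3 higher and 0 lower (Tex15 1.31 ± 0.44, Asz1 0.85 ± 0.15 and Mael 0.45 ± 0.12). Over all tested genes 39.2% were called there, so 3 of 10 is no result about the list. Piwil4 in P6gonocyte was -1.32 ± 0.23 against GFRA1neg and 1.44 ± 0.23 against KITpos, both called.

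Of 6 genes of methyl donor supply, Mat2b alone was called between GFRA1pos and GFRA1neg, at -0.74 ± 0.15. Mtr, methionine synthase, was lower in KITpos than in GFRA1pos (-1.73 ± 0.17), GFRA1neg (-1.64 ± 0.17) and P6gonocyte (1.17 ± 0.17, as P6gonocyte minus KITpos), with edgeR adjusted p of 1.45e-07, 3.25e-07 and 2.86e-05. Mat2a, which makes S-adenosylmethionine, was called in P6gonocyte minus GFRA1neg (0.42 ± 0.14) and P6gonocyte minus KITpos (0.52 ± 0.13).

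**Figure D5:**
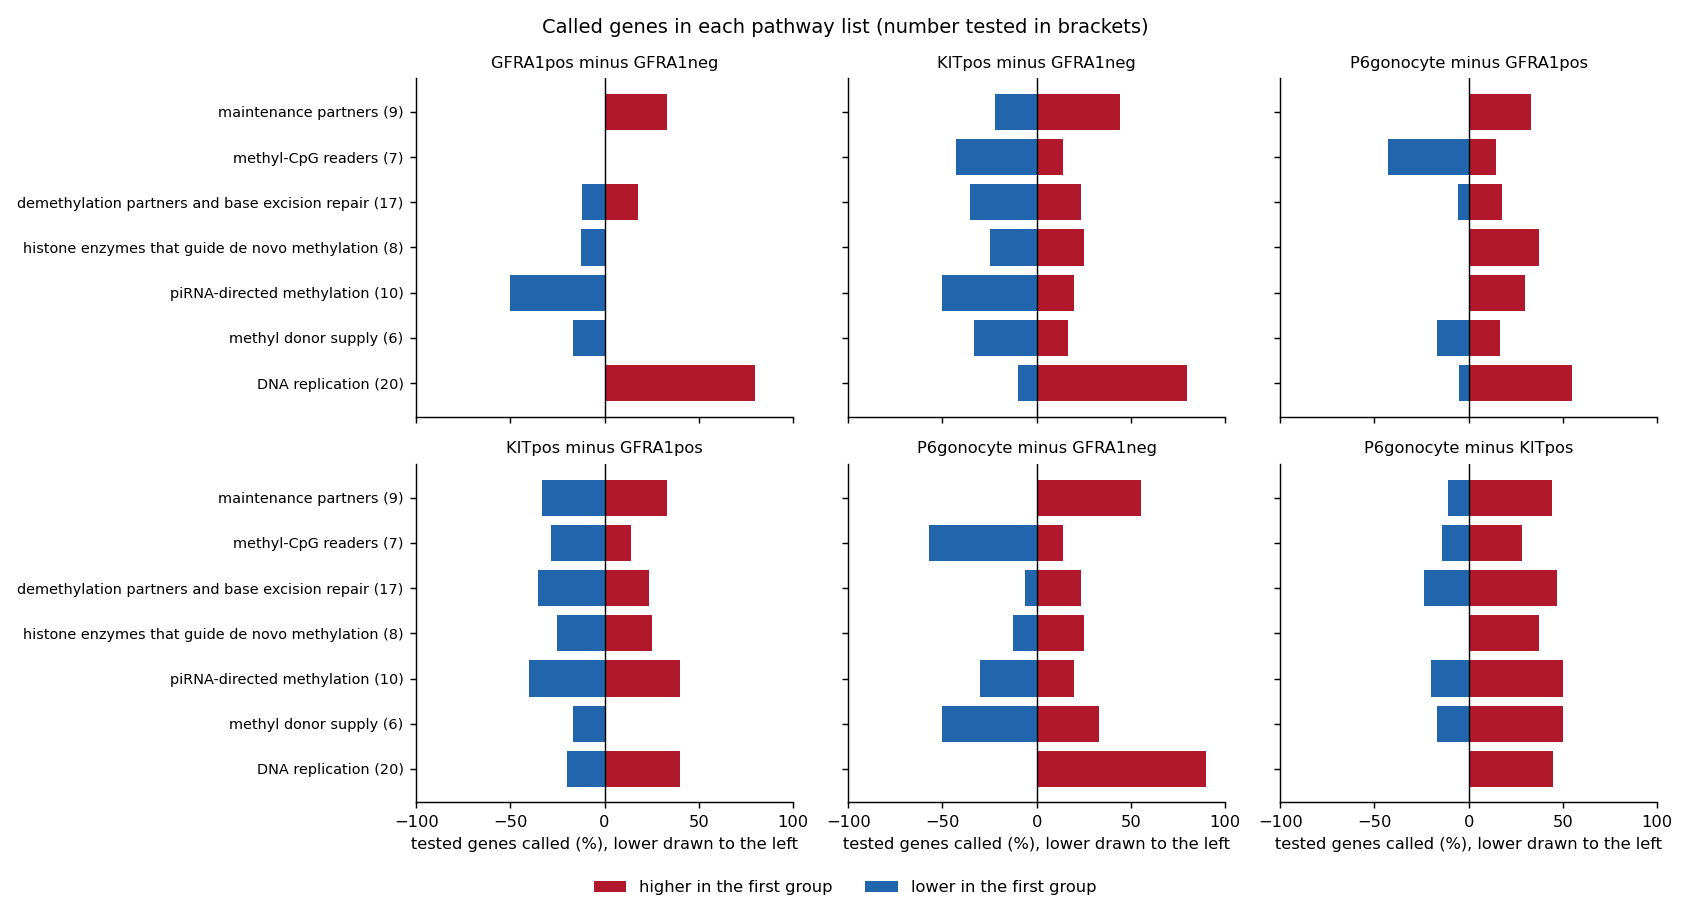
Bars give the percent of tested genes in each list called higher (red, to the right) or lower (blue, to the left) in the first group of each comparison, with the number tested in brackets. In GFRA1pos minus GFRA1neg 16 of 20 replication genes are called higher and 5 of 10 piRNA genes lower, and no methyl-CpG reader is called. Among all tested genes 7.3% are called higher there and 6.84% lower. The list labelled histone enzymes also holds Cbx3, which does not encode an enzyme.

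Genes with the pattern closest to each member were found by the root mean square difference between log2(CPM + 1) values centred per gene, over 17 libraries and 10351 genes with at least 10 CPM in a group. Dnmt1 lay closest to Cpt1a (0.149), Incenp (0.177) and Lig1 (0.187), and Uhrf1 to Lig1 (0.187), Cpt1a (0.189) and Dnmt1 (0.199). Hells lay closest to Nasp (0.225), a histone chaperone, Dek (0.234) and Ncl (0.257). Dnmt3a lay closest to Klhl24 (0.152), Fhl1 (0.178) and Vcp (0.194), and Dnmt3l to Tmtc4 (0.247) and Ifngr2 (0.269). Tet1 lay closest to 1700001L05Rik (0.319), 0610030E20Rik (0.342) and Tnfrsf10b (0.382), and Tet2 to Tirap (0.423), 2700099C18Rik (0.444) and Acaa1b (0.465). Tdg lay closest to its own pseudogene Tdg-ps2 (0.0308), then Dnaja2 (0.162) and Ggct (0.170). Tet3 lay closest to Rarg (0.347), the retinoic acid receptor gamma, Rbck1 (0.353) and Ehmt2 (0.366). The median distance of a gene to its nearest gene was 0.175 over all 10351, below the nearest distance of Uhrf1, Hells, Dnmt3l, Tet1, Tet3 and Tet2. Dnmt3l, Tet1 and Tet2 did not themselves reach the limit of 10 CPM, with highest group means of 2.36, 8.42 and 5.96 CPM. At such levels adding 1 to the CPM shrinks fold differences, so their distances and neighbours are not comparable with that median. Dnmt3b lay closest to Uap1l1 (0.0836), a distance that 2.19% of genes reach, with Kdm1a (0.211) and Akr1b3 (0.217) next, and Uap1l1 stood at 18.7% to 23.4% of the Dnmt3b CPM in every library.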

How the data were processed

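RNA of sorted testis cells was amplified and sequenced as paired-end reads, per the labels' protocols. The authors deposited a table of whole-number raw counts, 24013 genes by Entrez number in 17 libraries, with no normalization. The build (mm9) and the aligners TopHat2 2.0.4, Bowtie and Bowtie2 2.0.0-6 come from the submitters' processing notes, which also list DESeq, DESeq2 and Trim Galore, each with no role. The counting program, its annotation and strand use were not given in the sources used here. Symbols were matched for 23930 entries through a RefSeq GRCm38.p6 table and 83 had none. The column for GFRA1pos replicate 1 is spelled with GFP for GFR and was taken as a slip, so the GFRA1pos values rest on that reading.

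Comparisons used the quasi-likelihood F-test of edgeR 4.0.16 (R 4.3.3; all 17 libraries in a fit, TMM, filterByExpr, Benjamini-Hochberg over 15451 genes, common biological coefficient of variation 0.30). Alternatives were scaling by RLE or upper quartile, the test of DESeq2 1.42.0 or of limma 3.58.1 voom, a filter at 1 CPM in 4 libraries or none, the replicate block, leaving out the 2 most abundant entries, only the 2 groups, and each library left out in turn. Leaving out the 4 libraries highest in spermatid markers was chosen after seeing the data. Only the edgeR test was run on simulated counts, with fewer changed genes than were called in these data, and its outcome is not reported here. Replicate libraries differed by more than counting error, with chi-square per degree of freedom from 4.13 to 51 over 28 pairs, and none was treated as a duplicate. Counting floors (3 counts) cover counting error only, since PCR copies are not separate molecules.

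The 10 genes and all lists were chosen with earlier results of these data known. Named genes are the 10 members, up to 3 genes per list and comparison with the smallest adjusted p, and the 3 genes closest to a member in pattern. Piwil4 in GFRA1pos minus GFRA1neg, Tex15 in KITpos minus GFRA1neg and the uncalled Setd2, Nsd1 and Ehmt1 were named after their values were seen. Spocd1 and Rhox5 were not analysed here. Some genes that this rule picks are not reported here. Figures were drawn with matplotlib 3.10.9.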

Additional observations from a re-analysis of the deposited data

Results flagged for a closer look

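Within groups of 4 or 5 libraries, 5 of the 40 sets of values (10 genes in 4 groups) held a library set apart from the others by Dixon's criterion, of which chance alone flags about 1 in 20. Uhrf1 in P6gonocyte replicate 2 was the highest of its group at 253.1 CPM, against 219.6 to 221.3 in the others. Hells in GFRA1neg replicate 2 was the lowest at 72.61 CPM, against 102.9 to 108.2. In the same library Dnmt3b was the lowest at 134.1 CPM, against 181.2 to 188.8, and that library also had the highest spermatocyte marker sum of its group. Dnmt3b in KITpos replicate 2 was the highest at 208.5 CPM, against 127.5 to 141.1. Tet3 in KITpos replicate 1 was the lowest at 77.15 CPM, against 111.2 to 124.2.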

How the results depend on the processing

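Over all alternatives the number of the 10 genes called ran from 5 to 7 in GFRA1pos minus GFRA1neg (6 as reported), 6 to 9 in KITpos minus GFRA1neg (7), 5 to 6 in KITpos minus GFRA1pos (6), 5 to 7 in P6gonocyte minus GFRA1neg (5), 4 to 5 in P6gonocyte minus GFRA1pos (5) and 3 to 6 in P6gonocyte minus KITpos (4). Leaving out the 4 libraries highest in spermatid markers lowered the genes called to 1268 in GFRA1pos minus GFRA1neg (2185 as reported) and to 3971 in P6gonocyte minus GFRA1pos (6060), with fewer samples. Of 1107 log2 fold changes recomputed for the 10 genes, 1028 kept direction and call, 31 gained a call, 31 lost one and 17 changed sign, all 17 without a call on either side. For Dnmt3a in KITpos minus GFRA1pos the sign changed under RLE scaling (-0.0021), DESeq2 (-0.0019), without the 2 most abundant entries (-0.031) and without the 4 libraries (-0.081). For Dnmt3l there it changed without the 4 libraries (-0.19). With a library left out the values with a sign change ran from -0.028 to 0.11 for Dnmt3a and -0.45 to 0.58 for Dnmt3l there, -0.097 to 0.17 for Tdg in GFRA1pos minus GFRA1neg, -0.17 to 0.035 for Uhrf1 in P6gonocyte minus GFRA1pos, -0.0073 to 0.16 for Dnmt3b in P6gonocyte minus GFRA1neg, and -0.055 to 0.51 for Tet1 and -0.18 to 0.47 for Tet2 in P6gonocyte minus KITpos. Where a cause is not evident from the setting, the cause was not tested.

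By the rule that every pair of a comparison correlates above 0.1, replicate numbers paired the samples in none of the 6 comparisons: 6 of 24 same-numbered pairs did (range -0.46 to 0.52), and 7 of 24 correlated best with their own number. Pairs with P6gonocyte set neonates against adults and cannot share an animal. In GFRA1pos minus GFRA1neg replicates 1, 2 and 3 correlated at 0.48, 0.52 and 0.37, each best with its own number, and replicate 4 at 0.033. With the replicate block, 6, 8, 5, 5, 5 and 4 of the 10 genes were called in GFRA1pos minus GFRA1neg, KITpos minus GFRA1neg, P6gonocyte minus GFRA1pos, KITpos minus GFRA1pos, P6gonocyte minus GFRA1neg and P6gonocyte minus KITpos, and Dnmt3l in KITpos minus GFRA1pos stood at -0.42. The block was shared by all groups, so that fit is not a paired test of GFRA1pos and GFRA1neg alone. Counts were lowest for Dnmt3l, Tet1 and Tet2, and the part of depth in their changing calls was not tested.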
